A study of Mus musculus with 7 samples.

Results

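The genes that make triglyceride and coat, fuse or empty the lipid droplet were followed through 7 RNA libraries of C57BL/6 mouse liver. The set held 10 genes, Mogat1, Mogat2, Dgat1, Dgat2, Cidea, Cidec, Plin2, Plin4, Pnpla2 and G0s2, taken by gene symbol from the deposited expression tables, which list 33887 symbols usable in every library. The genes were chosen by function and by their measured FPKM in the 4 groups, with the differences between these libraries known, so their levels and differences are given as a description. By the labels, 2 libraries came from wild-type mice (WT), 2 from SunTag-dCas9 mice (SunTag), 1 was labelled Myod1 active (Myod1_active) and 2 were its controls (Myod1_control). The design text places the last 3 libraries in SunTag-dCas9 mice too, so the Myod1 controls carry the same knock-in as the SunTag group. dCas9 is a Cas9 protein that binds where its guide RNA matches without cutting, and SunTag is a repeated peptide that recruits several effector proteins to it. Myod1 encodes a transcription factor that drives the muscle program and is silent in liver. The age and sex of the mice, what drives the dCas9 gene, how Myod1 was activated, what the controls received and the number of animals are not stated in the sources used here.

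Triglyceride is built by adding fatty acids to a glycerol backbone, and the last fatty acid is added by the diacylglycerol acyltransferases DGAT1 and DGAT2. MOGAT enzymes supply diacylglycerol by a shorter route from monoacylglycerol, best known from the intestine. The product is stored in lipid droplets, whose surface carries perilipins (Plin genes) and CIDE proteins, and it is released again by lipases, of which adipose triglyceride lipase, encoded by Pnpla2, acts first and is held back by the G0s2 protein. In liver, PLIN2 is the main droplet coat protein, and CIDEA, CIDEC and PLIN4 are better known from adipose tissue.

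Because Myod1 was the gene activated, the RefSeq promoters of the set (GRCm38.p6, 250 bases before to 50 after each start) were searched for CAGCTG, an E-box of the kind that MYOD1 binds. Cidea was left out of this search. Entries matched 6 of the 10 genes, 7 promoters in all: Mogat1, Cidec with 2 entries, Plin2, Plin4, Pnpla2 and G0s2. CAGCTG, which reads the same on both strands, was found in 3 of these 7, those of Plin2, Cidec and G0s2, and in 16.3% of all 32851 promoters of the table. The 250 bases before each of these 3 starts are printed 5′ to 3′ on the strand of the gene, with CAGCTG in capitals.

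Plin2, chr4:86670060-86670309, minus strand: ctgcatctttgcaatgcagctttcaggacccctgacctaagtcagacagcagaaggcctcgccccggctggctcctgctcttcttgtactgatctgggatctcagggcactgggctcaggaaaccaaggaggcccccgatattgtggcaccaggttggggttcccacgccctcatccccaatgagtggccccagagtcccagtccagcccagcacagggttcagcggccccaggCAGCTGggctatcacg

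Cidec, chr6:113435761-113436010, minus strand: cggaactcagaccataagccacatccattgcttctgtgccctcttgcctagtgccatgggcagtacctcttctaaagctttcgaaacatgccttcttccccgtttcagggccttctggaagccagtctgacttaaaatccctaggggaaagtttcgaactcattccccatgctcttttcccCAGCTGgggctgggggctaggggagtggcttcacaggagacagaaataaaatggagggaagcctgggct

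G0s2, chr1:193273189-193273438, minus strand: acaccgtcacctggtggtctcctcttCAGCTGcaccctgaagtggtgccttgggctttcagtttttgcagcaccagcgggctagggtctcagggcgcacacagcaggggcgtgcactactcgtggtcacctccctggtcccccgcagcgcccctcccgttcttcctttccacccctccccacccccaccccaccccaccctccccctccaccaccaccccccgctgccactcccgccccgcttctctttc

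The motif began 16 bases before the start of Plin2, 69 before that of Cidec and 224 before that of G0s2. The other Cidec entry and the promoters of Mogat1, Plin4 and Pnpla2 held no CAGCTG. Among the other motifs searched on both strands, the E-box CACGTG (7.15% of all promoters) was found in Plin2, 4 bases before the start and running across it. AGGTCA, a half-site of nuclear receptors (16.3%), was found in Plin2 at 218 bases before the start. CCAAT (37.4% of all promoters) was found in 3 of the 7, GGGCGG (35.7%) in 3 of the 7, and TATAAA (13.6%) and a pair of AGGTCA in tandem with 1 base between them (0.0396%) in none. A match is a stretch of letters, and binding was not measured.

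Expression was deposited as FPKM, fragments scaled by transcript length and by library size, so levels can be set side by side between genes. Read totals were unknown, and between 12971 and 13804 symbols per library reached an FPKM of 1. Myod1 was at 3.52 FPKM in the Myod1_active library and listed at 0 in the other 6. The 3 libraries of the Myod1 experiment stood apart from the 4 WT and SunTag libraries in markers of sex, with Xist at 56.9 to 82.2 FPKM in WT and SunTag and at most 0.324 in the Myod1 experiment, and Eif2s3y, a Y-linked gene, at most 0.531 against 30.3 to 37.3. SunTag replicate 1 stood apart within its experiment: over genes of 300 bp or more its log2 values correlated at 0.975 to 0.980 with the WT and other SunTag libraries, against 0.989 to 0.990 among those 3. The 8 hepatocyte markers summed to 66128 to 78935 FPKM in WT and SunTag and to 43861 to 49986 in the Myod1 experiment. Most of each sum was Alb, at 46475.9 to 54092.5 in WT and SunTag and 28499.7 to 35431.1 in the Myod1 experiment. Of the 7 adipocyte markers Fabp4 (1.43 to 68.8) and Lipe (3.85 to 7.15) were present, and Adipoq, Lep and Plin1, which define the adipocyte, were at most 0.0728. Of the 7 enterocyte markers Fabp2 was at 9.81 to 42.5 and Vil1 at 0.0538 to 1.37, and Alpi and Sis were listed at 0 throughout.

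**Figure D1:**
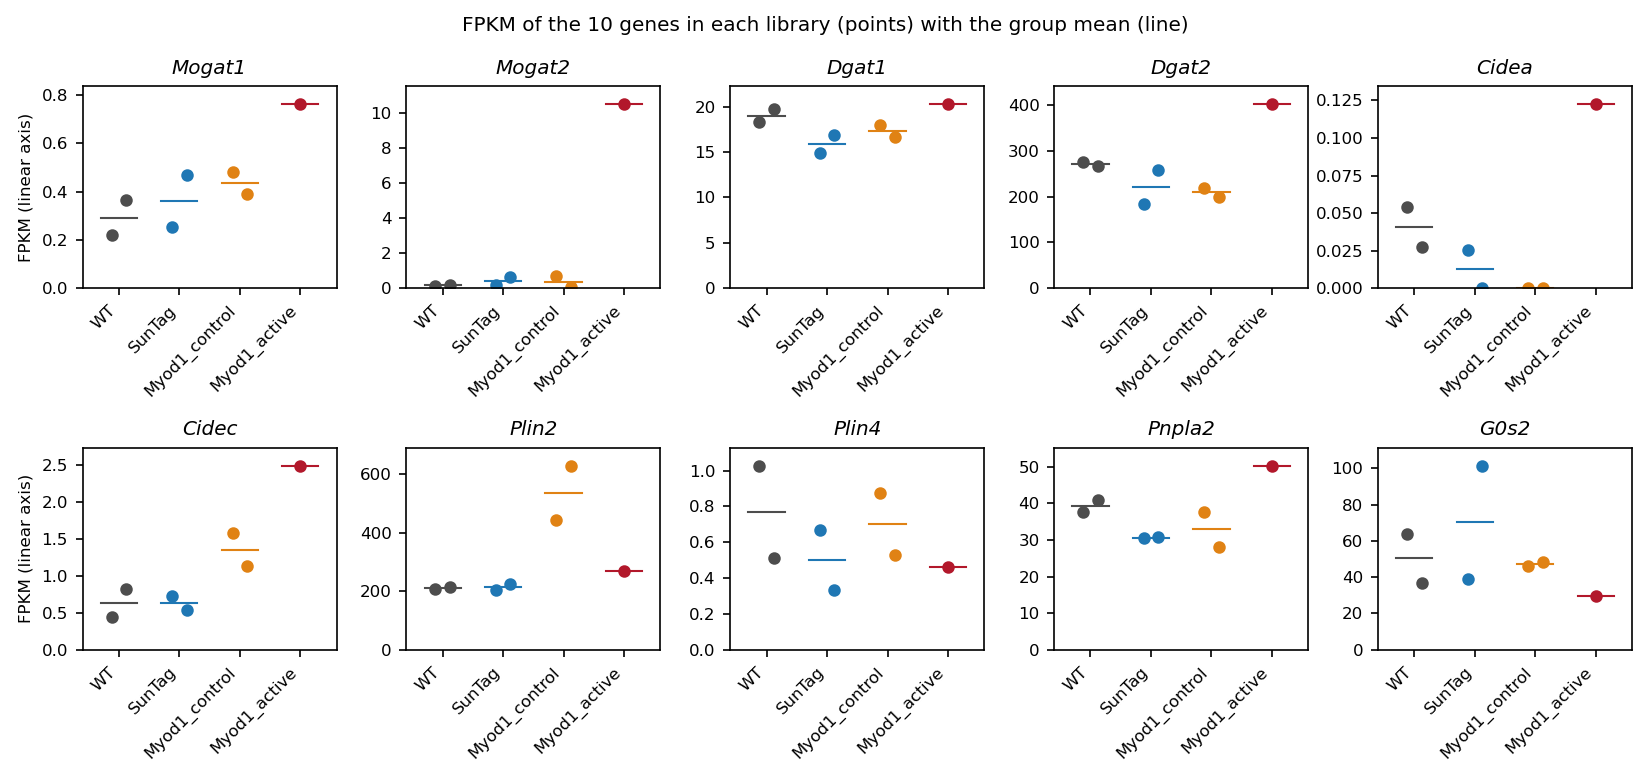
FPKM (linear axes from 0) of the 10 genes in each library, as points, with a line at the group mean; WT, SunTag and Myod1_control have 2 libraries each and Myod1_active has 1. Mogat2 is at 10.5 FPKM in the single Myod1_active library against at most 0.682 elsewhere, while Plin2 is highest in the Myod1_control libraries.

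In level the set fell into 3 tiers. Dgat2 and Plin2 were abundant, between the 96.9th and 98.7th percentile of the expressed symbols for Dgat2 and between the 97.1th and 99.2th for Plin2. Dgat1, Pnpla2 and G0s2 lay between 14.9 and 101 FPKM. Mogat1, Plin4, Cidec and Cidea stayed at or below 2.49 FPKM in every library, and Mogat2 did so in 6 of 7. Of the 10 genes, 8 reached 1 FPKM in at least 1 library and so have a fitted difference. Mogat1 and Cidea did not. Mogat2 passed this filter through the Myod1_active library alone, and Plin4 through WT replicate 1 alone, at 1.03 FPKM. Cidec passed it only through the libraries of the Myod1 experiment, where it was highest.

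Mogat2 encodes a monoacylglycerol acyltransferase. Its WT libraries held 0.149 and 0.173 FPKM, with 0.172 and 0.614 in SunTag, 0.682 and 0.0687 in Myod1_control and 10.5 in Myod1_active. The 6 libraries without Myod1 activation overlapped between groups, and the Myod1_active value lay above all of them. It was 28.0 times the mean of the controls, and between 15.4 and 153 times the single control libraries, a wide span because 1 control was near 0. On the log2(FPKM + 1) scale, relative to the median gene, the difference was 2.85 with an SE of 0.354. Mogat1, the other monoacylglycerol acyltransferase of the set, was at 0.219 and 0.364 in WT, 0.254 and 0.468 in SunTag, 0.482 and 0.392 in Myod1_control and 0.762 in Myod1_active. It had the same highest library as Mogat2, 1.74 times the control mean, at a level under 1 FPKM. Within a library, Mogat2 stood between 0.175 and 1.42 times Mogat1 in the 6 other libraries and at 13.8 times in Myod1_active. Mogat1 overlaps BC035947 in the tables, and whether reads were counted by strand is not stated. BC035947 was at 0.518 and 0.129 FPKM in Myod1_control, the first of these above Mogat1 in that library, and at 0.0250 in Myod1_active. Whether its reads entered the Mogat1 values was not tested.

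Dgat2, which with DGAT1 carries out the last acylation, was at 276 and 267 FPKM in WT, 184 and 258 in SunTag, 219 and 200 in Myod1_control and 401 in Myod1_active. SunTag and Myod1_control overlapped, WT lay just above both, and the Myod1_active library was highest at 1.92 times the control mean. Dgat1 was at 18.3 and 19.7 in WT, 14.9 and 16.9 in SunTag, 18.0 and 16.6 in Myod1_control and 20.3 in Myod1_active. Dgat1 varied least of the set, with its highest library at 1.36 times its lowest. Relative to the median gene, the difference between Myod1_active and Myod1_control was 0.69 with an SE of 0.244 for Dgat2 and -0.04 with an SE of 0.158 for Dgat1. The sign of the Dgat1 difference changed in 3 of 14 alternative settings. The ratio of Dgat2 to Dgat1 within a library was between 12.0 and 15.3 in 6 libraries and 19.8 in Myod1_active.

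Mogat2 and Dgat2 are neighbours on mm9 chromosome 7, Dgat2 at chr7:106302173-106331223 and Mogat2 at chr7:106367594-106387129, with 36370 bp between them. Among the other neighbours, Uvrag, 12518 bp from Dgat2, was between 5.40 and 6.27 FPKM in all 7 libraries. Gm16890, on the far side of Mogat2, was at 0.0939 FPKM in Myod1_active and 0.195 and 0.216 in the controls, and Mtap6 was at most 0.0884 in any library.

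Plin2, the main perilipin of hepatocyte droplets, had another pattern. Its FPKM was 208 and 214 in WT, 205 and 224 in SunTag, 444 and 629 in Myod1_control and 268 in Myod1_active. WT and SunTag overlapped, both controls of the Myod1 experiment were at least 1.98 times the highest SunTag library, and the Myod1_active library lay between. The Myod1_active value was 0.501 times the control mean, with a difference relative to the median gene of -1.23 and an SE of 0.250. Leaving out either control moved this difference to -1.49 or -0.97. Plin4, a perilipin of adipose tissue and muscle, was at 1.03 and 0.513 in WT, 0.669 and 0.333 in SunTag, 0.876 and 0.527 in Myod1_control and 0.463 in Myod1_active. For Plin4 the WT, SunTag and Myod1_control libraries overlapped, and the Myod1_active library lay within the range of SunTag. Plin4 (mm9 chr17:56240014-56249225) overlaps only the edge of Hdgfrp2 (chr17:56219057-56240019), which was at 10.9 to 15.3 FPKM, and lies 1798 bp from Plin5.

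The other perilipins place Plin2 within its family. Plin1, the adipocyte member, was listed at 0 in 6 libraries and at 0.0158 FPKM in 1 control. Plin3, a widely expressed perilipin, was between 18.4 and 30.4 FPKM and Plin5, typical of tissues that burn fat, between 20.4 and 31.0. Of the summed FPKM of the 5 perilipins, Plin2 took 81.1% to 84.0% in WT and SunTag, 91.0% and 92.6% in Myod1_control and 81.3% in Myod1_active. The share of Plin2 in the Myod1_active library thus lay within the range of WT and SunTag.

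Cidec, which fuses droplets into larger ones, was at 0.447 and 0.823 FPKM in WT, 0.725 and 0.535 in SunTag, 1.58 and 1.13 in Myod1_control and 2.49 in Myod1_active. WT and SunTag overlapped, both controls lay above them and the Myod1_active library above the controls, at 1.84 times their mean. Relative to the median gene that difference was 0.32 with an SE of 0.242. Cidea, a related protein of brown fat, was at 0.0543 and 0.0276 in WT, 0.0255 and 0 in SunTag, 0 in both controls and 0.122 in Myod1_active. With these values near 0, no fold is given for Cidea. Cideb, the CIDE gene of hepatocytes, was at 138 to 305 FPKM, and its ratio to Cidec was between 306 and 549 in WT and SunTag, 105 and 122 in the controls and 78.9 in Myod1_active.

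Pnpla2, encoding the lipase that takes the first fatty acid off triglyceride, was at 37.7 and 41.0 FPKM in WT, 30.6 and 30.8 in SunTag, 37.7 and 28.2 in Myod1_control and 50.3 in Myod1_active. Myod1_control overlapped both WT and SunTag. The Myod1_active library was highest, at 1.52 times the control mean, with a difference relative to the median gene of 0.36 and an SE of 0.213. G0s2, its inhibitor, was at 64.0 and 36.7 in WT, 39.1 and 101 in SunTag, 46.0 and 48.2 in Myod1_control and 29.8 in Myod1_active. Here the Myod1_active library was lowest, at 0.633 times the control mean (difference -0.90, SE 0.625), but the 2 SunTag libraries alone differed by 2.59 times. The ratio of Pnpla2 to G0s2 was 1.69 in Myod1_active and between 0.304 and 1.12 in the others. The ratio of Plin2 to Pnpla2 was 11.8 and 22.3 in the controls, 5.34 in Myod1_active and between 5.23 and 7.28 in WT and SunTag.

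**Figure D2:**
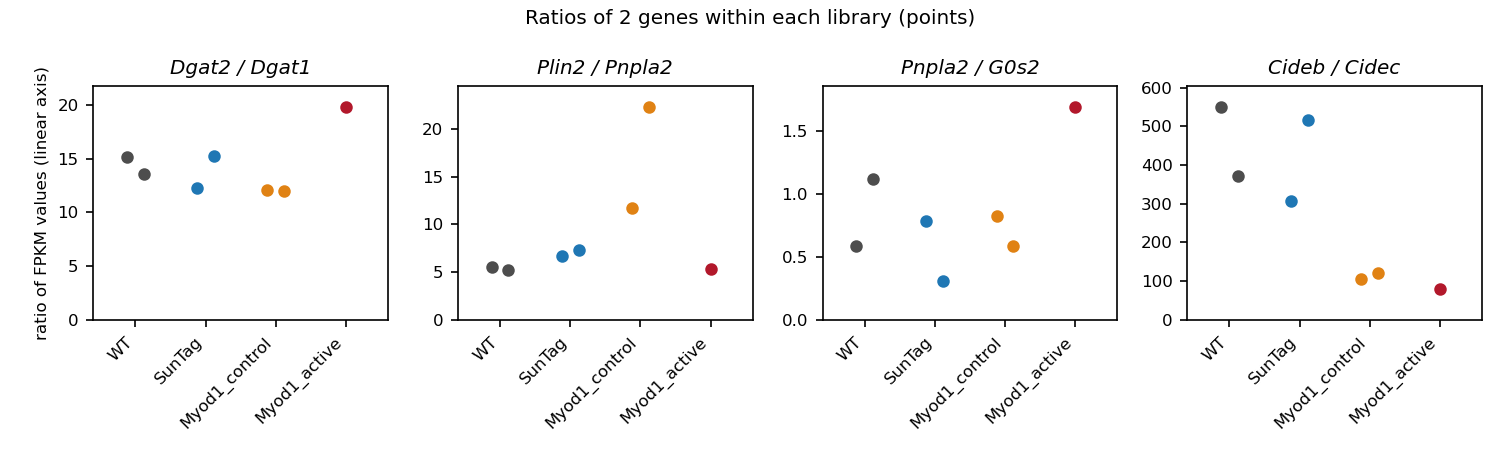
Ratio of the FPKM of 2 genes within each library (linear axes from 0), by group, for Dgat2 to Dgat1, Plin2 to Pnpla2, Pnpla2 to G0s2 and Cideb to Cidec; each point is 1 library. Dgat2 to Dgat1 and Pnpla2 to G0s2 are highest in Myod1_active (19.8 and 1.69), and Plin2 to Pnpla2 is highest in the Myod1_control libraries (11.8 and 22.3).

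The differences were fitted with limma on log2(FPKM + 1) over all 15744 genes that reached 1 FPKM, with Benjamini-Hochberg adjustment and a threshold of 0.05, and are given relative to the median gene. The median gene itself differed by 0.25 in Myod1_active against Myod1_control, by 0.01 in SunTag against WT and by -0.14 in Myod1_control against SunTag. The single Myod1_active library is assumed to vary as much as libraries of the other groups. The labels do not tie replicates to separate animals, and the p-values reflect only how far these libraries spread, which may be technical. In Myod1_active against Myod1_control, 0 of the 8 fitted genes passed and 0.254% of all genes did (0.216% higher and 0.0381% lower). In the same comparison the groups did not overlap for 8 of 8 genes of the set and for 78.0% of all genes. Dgat2, Cidec and Pnpla2 lay above the median gene and Plin2, Plin4 and G0s2 below it in every setting that could be run.

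In SunTag against WT, 0 of 8 passed, against 0.127% of all genes (0.0508% higher and 0.0762% lower). The groups did not overlap for 3 of 8, Dgat1, Dgat2 and Pnpla2, all lower in SunTag, against 25.8% of all genes. The differences ran from -0.36 for Pnpla2 (SE 0.174) to 0.36 for G0s2 (SE 0.511), and that of Plin2 was 0.004 with an SE of 0.204. The difference of G0s2 was 1.05 when SunTag replicate 1 was left out and -0.32 when SunTag replicate 2 was, and that of Dgat2 -0.07 and -0.58.

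In Myod1_control against SunTag, 2 sets of SunTag-dCas9 livers from different experiments, 1 of 8 passed, Plin2, against 24.3% of all genes (7.30% higher and 17.0% lower), and the groups did not overlap for 2 of 8, Plin2 and Cidec, against 66.6% of all genes. Plin2 in the controls was at 2.50 times its SunTag mean, with a difference of 1.43 and an SE of 0.204. The set was chosen with these values known, so the limma adjusted p of Plin2, 0.0221, is a description and no test. That value rose above the threshold without WT replicate 1 or 2, SunTag replicate 1 or either control. The difference stayed between 1.19 and 1.69. Cidec differed by 0.66 with an SE of 0.197 and did not pass. It had entered the fit only through libraries of the Myod1 experiment, where it was high, so its lack of overlap is a description too. The remaining 6 genes differed by -0.28 (G0s2) to 0.32 (Plin4), and G0s2 moved to -0.96 when SunTag replicate 1 was left out and to 0.39 when SunTag replicate 2 was. Both this comparison and that of Myod1_active use the 2 Myod1_control libraries, so the higher Plin2 against SunTag and the lower Plin2 of Myod1_active rest on the same control values.

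**Figure D3:**
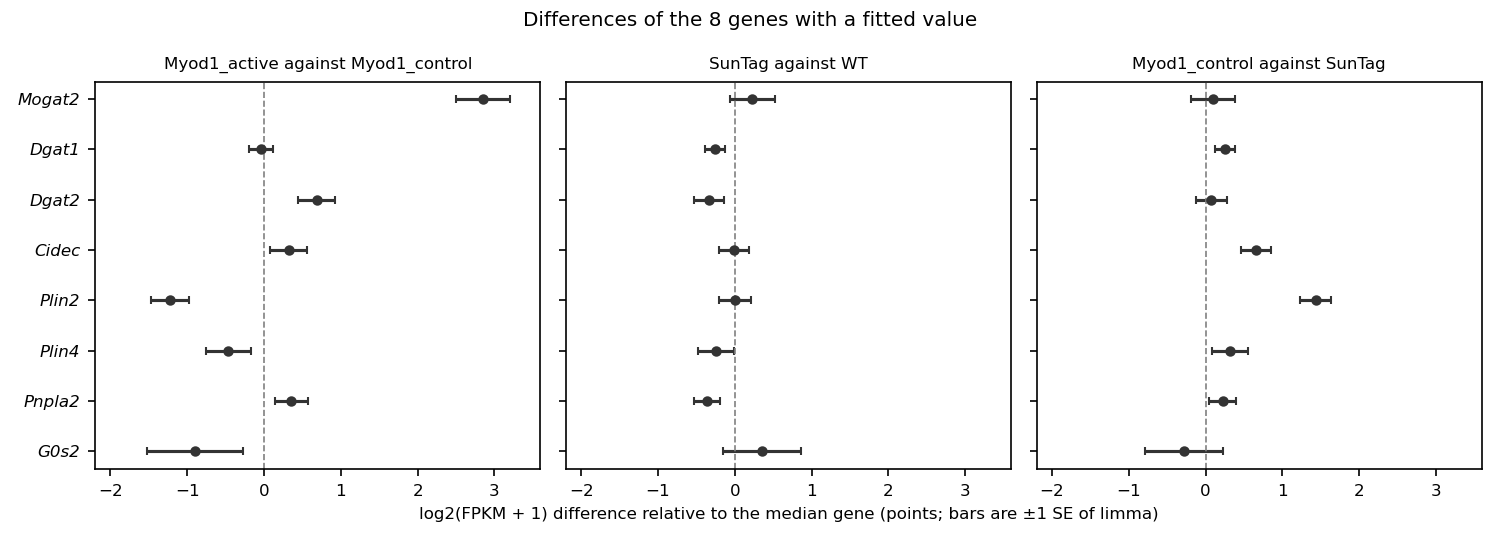
Difference in log2(FPKM + 1) relative to the median gene for the 8 genes with a fitted value, in each of the 3 comparisons; points are the limma estimates and bars are 1 SE on either side. Mogat2 at 2.85 and Plin2 at -1.23 lie farthest from 0 in Myod1_active against Myod1_control, Plin2 at 1.43 lies farthest in Myod1_control against SunTag, and all 8 lie between -0.36 and 0.36 in SunTag against WT.

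Cell type markers moved with the Myod1_control against SunTag comparison, and in bulk RNA fewer cells of a type and less RNA per cell cannot be told apart. The summed FPKM of 7 Kupffer cell markers was 45.4 and 44.7 in the controls against 397 and 251 in SunTag, with 6 of 7 called lower in limma. That of 6 endothelial markers was 42.7 and 44.5 against 125 and 137, with 5 of 6 called lower, and that of 6 stellate cell markers 19.9 and 14.7 against 119 and 65.7, with 3 of 6 called lower. Of 5 red blood cell markers, 4 globin genes were called lower, with Hba-a1 at 0.792 and 1.25 FPKM in the controls against 1927 and 1233 in SunTag. The fifth, Alas2, which starts haem synthesis, was called higher, at 44.1 and 38.2 against 21.7 and 13.8, and made up nearly all of the control sums of that list (45.9 and 39.9, against 6389 and 3919 in SunTag). The 8 hepatocyte markers summed to 48083 and 49986 in the controls against 66839 and 66128 in SunTag, mostly Alb, with Cps1 called higher and Tat called lower. Of the 8, 4 lay above the median gene and 4 below, with a list median of -0.09. Sex markers differed as given above. The 2 experiments, the sex markers and the cell markers therefore cannot be told apart from the difference in Plin2. In Myod1_active against Myod1_control none of these lists had a called gene (adjusted p at least 0.161 in limma over the Kupffer, endothelial and stellate lists), and the Myod1_active sums were 38.2, 30.4 and 15.2. Below the median gene in that comparison lay 6 of 7 Kupffer, 6 of 6 endothelial and 5 of 6 stellate markers. The list medians were -0.44, -0.76 and -0.42. The part of these markers in the member differences was not tested. The hepatocyte sum was 43861 in Myod1_active with 0 of 8 called. On that list 3 markers lay above the median gene and 5 below, with a list median of -0.31. Cyp2e1 had the most negative difference of the 8, at 1203 FPKM against 2896 and 3045 in the controls. It was at 1317 in SunTag replicate 1. For Mogat2, the 7 enterocyte markers summed to 11.3 in Myod1_active against 20.3 and 18.0 in the controls, nearly all of it Fabp2 at 9.81 against 19.5 and 17.7. Vil1, a microvillus gene, went the other way, at 1.37 against 0.688 and 0.149, Alpi and Sis were listed at 0, and Lct, Cdh17 and Slc5a1 were at most 0.0974 in these 3 libraries. For Cidec and Plin4, the 7 adipocyte markers summed to 14.5 in Myod1_active, 7.05 and 12.1 in the controls and 72.9 and 30.2 in SunTag, mostly Lipe and Fabp4, which other cells express too.

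Around the set, 87 further genes of lipid handling were read in 8 lists, of which 86 had a row and 84 were fitted. In Myod1_active against Myod1_control 0 of 84 passed in limma, 19 had an unadjusted p under 0.05 (22.6%, against 19.5% of all genes), and the median difference was -0.16, with 30 genes above the median gene and 54 below. Among the 13 genes that assemble glycerolipid before the last step, 6 lay above the median gene and 7 below. Gpat3, a glycerol-3-phosphate acyltransferase listed as Agpat9, was at 1.68 and 1.79 FPKM in WT, 2.53 and 2.22 in SunTag, 2.77 and 2.48 in Myod1_control and 8.44 in Myod1_active (difference 1.13, SE 0.158, adjusted p = 0.0890 in limma). It thus had its highest value in the same library as Mogat2 and Dgat2, and how many of all genes share this was not counted. Agpat5 (0.79) and Agpat1 (0.55), which add the second fatty acid, had the next largest positive differences of that list, and Lpin2, a phosphatidate phosphatase, the most negative at -0.81.

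The 12 other hydrolysis genes lay mostly below the median gene in Myod1_active, 11 of 12, with a list median of -0.37 and 0 passing. Ces1d (-1.16), Ces3a (-1.09) and Ces1g (-0.90), carboxylesterases of liver, were the most negative. Abhd5, the coactivator of the Pnpla2 lipase, differed by -0.22 and Lipe, hormone-sensitive lipase, by -0.16. Before the median gene was taken off these differences were 0.03 and 0.10, so neither gene was lower in FPKM than the control mean. The count of 11 of 12 likewise depends on taking off the median gene, which itself differed by 0.25. Abhd5 was at 21.2 FPKM against 17.3 and 24.7 in the controls, and Lipe at 6.70 against 5.37 and 7.15. The 8 genes of the fasting response had the lowest list median, -0.72, with 6 of 8 below the median gene. Angptl4, a secreted inhibitor of lipoprotein lipase, was at 39.8 and 35.4 FPKM in WT, 26.7 and 11.8 in SunTag, 69.6 and 61.3 in Myod1_control and 11.2 in Myod1_active. The Myod1_active value was close to that of SunTag replicate 2 (difference from the controls -2.69, SE 0.462, adjusted p = 0.155 in limma). The 7 genes of de novo lipogenesis had the highest list median, 0.67, with 5 of 7 above. Fasn, the fatty acid synthase, was at 673 FPKM against 174 and 380 in the controls, and Scd1, which desaturates fatty acids, at 3390 against 1566 and 1812.

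The remaining lists had medians of -0.05 for 14 other coat and biogenesis genes, -0.22 for 8 genes of VLDL assembly and secretion, -0.42 for 11 genes of fatty acid uptake and activation and -0.03 for 11 regulators. Acsl1, which activates fatty acids to their CoA esters, followed the order of Plin2: 269 and 210 FPKM in WT, 217 and 256 in SunTag, 939 and 1117 in Myod1_control and 404 in Myod1_active (difference -1.59, SE 0.243, adjusted p = 0.152 in limma). Apoc3, an apolipoprotein of VLDL, was lowest in the controls, at 7919 and 9288 in WT, 7684 and 7708 in SunTag, 3607 and 2823 in Myod1_control and 8507 in Myod1_active. Hilpda, a droplet protein that inhibits the Pnpla2 lipase, was between 1.57 and 3.66 FPKM and differed by -0.29. Pparg, a regulator known to drive Cidec and Mogat1 in fatty liver, was at 2.53 in Myod1_active and 1.74 in both controls (difference 0.11).

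In SunTag against WT 0 of the 84 genes passed in limma and 2 had an unadjusted p under 0.05 (2.38%, against 1.95% of all genes), Cd36 and Angptl4. The list medians lay between -0.13 and 0.14. Cd36, a fatty acid transporter, was at 6.09 and 5.87 FPKM in WT, 17.2 and 12.6 in SunTag, 5.73 and 9.41 in Myod1_control and 14.8 in Myod1_active. Lpin1, another phosphatidate phosphatase, was at 18.0 and 13.8 in WT and 16.3 and 5.25 in SunTag, so that its SunTag value rests on replicate 2.

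In Myod1_control against SunTag 19 of the 84 genes rose and 4 fell, 27.4% in all, against 24.3% of all genes. The median difference was 0.37. Of all genes 7.30% rose and 17.0% fell, a split that moved with the scaling. The lists were chosen with earlier results of these data known, so the directions of the 84 genes are a description. Among the genes that rose were Acsl1 (2.25, SE 0.199), Slc27a2 (1.94, SE 0.257), which takes up and activates fatty acids, Acaca (1.91, SE 0.237), the first enzyme of fatty acid synthesis, and Gpam (1.70, SE 0.356), which starts glycerolipid assembly. The droplet biogenesis genes Fitm1 (2.11, SE 0.373) and Fitm2 (1.22, SE 0.133) rose too. Fitm1 was at 1.73 and 3.12 FPKM in SunTag, 15.1 and 9.71 in Myod1_control and 11.3 in Myod1_active. The other genes that rose were Agpat3, Lpin2, Ces3a, Mttp, Sar1b, Surf4, Lpl, Ppara, Mlxipl, Creb3l3, Ppargc1a, Cpt1a and Angptl4. Those that fell were Fabp4 (-3.38, SE 0.621), Tm6sf2 (-1.17, SE 0.167), Apoc3 (-1.13, SE 0.202) and Gpat2 (-0.74, SE 0.153). Fabp4 is also made by endothelial cells and macrophages, whose markers fell in the same comparison. The part of these cells in the Fabp4 difference was not tested. Of these 23 calls 0 were kept without WT replicate 1, WT replicate 2 or either Myod1_control replicate, 1 with the compared libraries alone and 7 without SunTag replicate 1. In those settings the differences stayed between 0.753 and 1.28 times their main value.

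**Figure D4:**
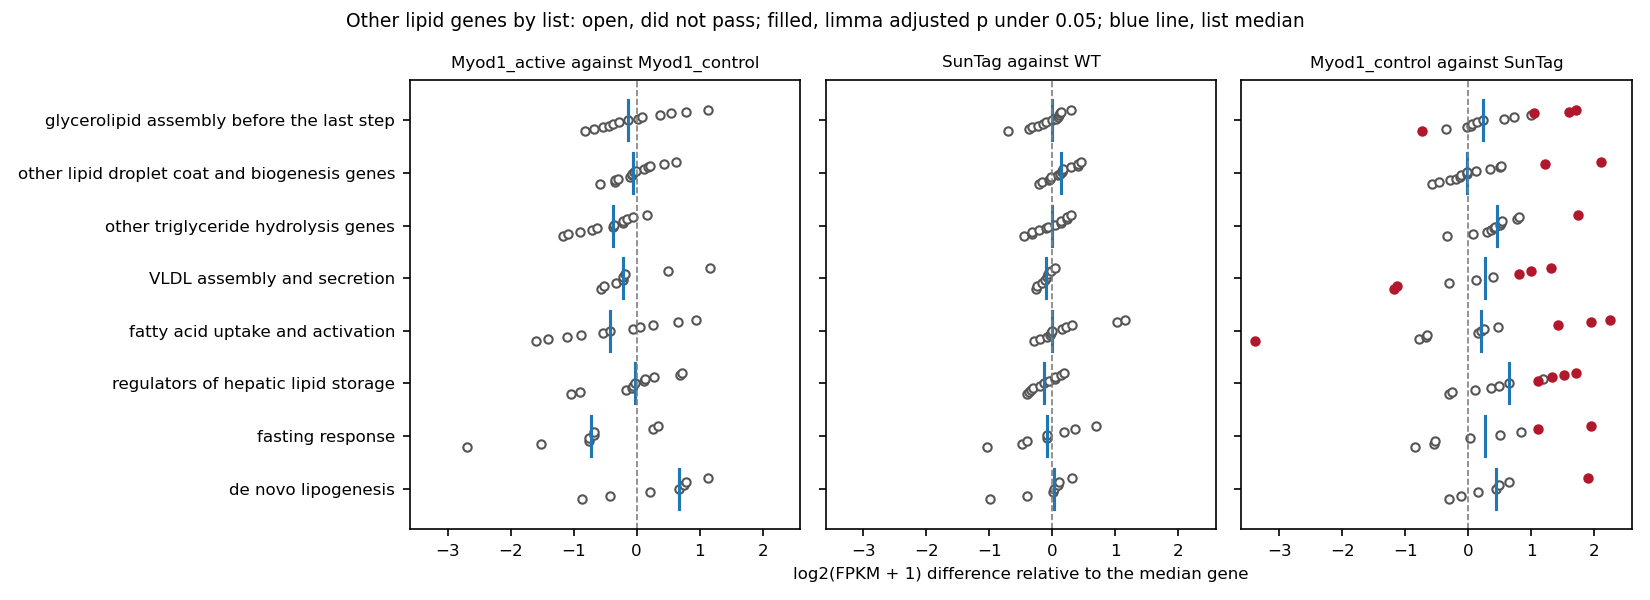
Difference in log2(FPKM + 1) relative to the median gene for the 84 fitted genes of the 8 lipid lists in the 3 comparisons; open points did not pass the limma threshold, filled points passed it, and the blue line is the median of the list. Filled points appear in Myod1_control against SunTag (19 higher and 4 lower), and in Myod1_active against Myod1_control the hydrolysis and fasting lists lie mostly left of 0.

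For each fitted gene the genes with the most similar levels were sought by Pearson's r of log2(FPKM + 1) over the 7 libraries, which share 4 groups and 2 experiments, as a description without a test. The closest to Mogat2 were Cilp (r = 0.994), Cabp2 (0.991) and H3f3b (0.989), and the likeness rests on the Myod1_active library. Cilp was at 2.29 FPKM there and at most 0.242 elsewhere, and Cabp2 at 10.1 and at most 0.982. The closest to Dgat2 were Anxa4 (0.991), Osbp2 (0.975) and Twf1 (0.974). Anxa4, an annexin, was at 33.2 FPKM in Myod1_active and 16.8 to 24.1 elsewhere. The closest to Plin2 were Mtnr1a (0.996), Znrf1 (0.995) and Aox1 (0.993). Aox1, an aldehyde oxidase of liver, was at 33.8 and 54.7 FPKM in the controls, 16.8 in Myod1_active and 8.47 to 11.6 in WT and SunTag. The closest to Cidec were Tmem150a (0.990), Smo (0.986) and Cask (0.984), to Pnpla2 Iqsec2 (0.991), to Plin4 Zfp292 (0.962), to Dgat1 Aifm3 (0.951) and to G0s2 Ppm1b (0.925).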

How the data were processed

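Total RNA of 7 C57BL/6 mouse liver samples was sequenced. The authors deposited FPKM per gene with bounds and a status per row, per the file headers. Cutadapt 1.11, TopHat2 2.1.1, Cufflinks 2.2.1 and the build mm9 are named in the submitters' processing notes; settings and use of strand are not stated in the sources used here. Read counts are unknown, so no counting interval is given. Of the 70 member values, 21 (all of Dgat2, Plin2 and G0s2) lay outside their own deposited bounds, so bounds were not used as errors.

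Rows with a status other than OK in any library (343, among them Acly and Reln) were left out and rows sharing a symbol were summed. Genes with an FPKM of at least 1 in at least 1 library, 15744 in all, were tested as log2(FPKM + 1), which understates changes of low genes, with limma 3.58.1 in R 4.3.3, 4 group means over all 7 libraries and a mean-dependent prior variance (residual degrees of freedom 3, prior 1.93). P-values were two-sided and adjusted by Benjamini-Hochberg over all tested genes. SE and p-values belong to differences before the median gene was taken off. The same code was tested on simulated data. Named genes were all 10 members, list genes past the threshold, up to 4 others per list and comparison with the largest differences, a fixed few such as Plin1, Plin3, Plin5, Cideb and Pparg, and the 3 genes of most similar pattern. The members and lists were chosen with earlier results of these data known. Alternatives changed the pseudocount, the filter, the scaling, the genes and libraries in the fit and the replicate block. Positions are mm9, counted from 1, and promoters are RefSeq entries on GRCm38.p6.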

Additional observations from a re-analysis of the deposited data

How the results depend on the processing

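In Myod1_active against Myod1_control 40 genes passed in limma, 34 higher and 6 lower. The count was 23 (13 higher, 10 lower) with a pseudocount of 0.1, 253 without a filter, 20 without genes under 300 bp and 0 with the compared libraries alone (2425 at an unadjusted p under 0.05). Leaving out single libraries gave 49 to 119, with 119 (55 higher, 64 lower) without Myod1_control replicate 1 and 94 (45 and 49) without replicate 2. In SunTag against WT 20 passed, 8 higher and 12 lower, 5 without genes under 300 bp and 31 with the compared libraries alone, and 23 to 79 with single libraries left out (60 and 79 without WT replicates 1 and 2, of which 9 and 10 higher, and 70 and 71 without SunTag replicates 1 and 2, of which 55 and 57 higher). In Myod1_control against SunTag 3832 passed, 1149 higher and 2683 lower, and 255 with the compared libraries alone. Single libraries left out gave 58 to 4070: 59 and 58 without WT replicates 1 and 2, 918 without SunTag replicate 1, 127 and 126 without Myod1_control replicates 1 and 2. The split was 1589 higher and 2015 lower after median-ratio scaling and 1757 and 1764 after quantile normalization. The cause was not tested. With the replicate number as a block the counts were 23, 15 and 2928; deviations of same-numbered libraries correlated at 0.0425, 0.0341 and 0.00076 over genes, so the numbers were not treated as pairs. The Myod1_active comparison could not be run without its only library.
Among the members, whose calls are a description, Plin2 was under the threshold in Myod1_control against SunTag in 9 of 15 settings. With the compared libraries alone it was not (adjusted p = 0.0602 in limma). In Myod1_active against Myod1_control the difference of Mogat2 ranged from 2.53 to 4.55. It was counted as passing when the 1229 genes under 300 bp were left out, but it had entered the test only through the library where it was high. Signs changed in at least 1 setting for Dgat1 in that comparison, for Mogat2, Cidec, Plin2 and G0s2 in SunTag against WT, and for Mogat2, Dgat2 and G0s2 in Myod1_control against SunTag, none of which passed.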
